A study of Mus musculus with 63 samples.

Results

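The miR-99, miR-100 and miR-125 family was followed through 4 cell types sorted from mouse kidneys during ureteric obstruction and its reversal. Its members were taken by name from the table of miRNA counts (mmu-miR-99a-5p, mmu-miR-99b-5p, mmu-miR-100-5p, mmu-miR-125a-5p and mmu-miR-125b-5p, written here without the prefix for mouse), with every genomic locus that carries one of these names. This gave 5 of 1966 mature names and 6 of 2110 loci, since miR-125b-5p is encoded at 2 loci. The libraries came from 16 male C57BL/6 mice aged 8 to 12 weeks, 4 in each condition: sham surgery (sham), unilateral ureteric obstruction for 2 days (UUO-2) or 7 days (UUO-7), and obstruction for 7 days followed by reimplantation of the ureter and 14 days of reversal (R-UUO). Endothelial cells (ECs; CD45- CD31+), F4/80hi macrophages (Macs), proximal tubular cells (PT cells; LTL+) and PDGFR-β+ stromal cells were sorted by FACS from digested renal cortex, and the small RNA of each was sequenced. All groups held 4 libraries except PDGFR-β+ cells at UUO-7, which held 3, the authors having removed an outlier. Each population is defined by the surface marker used for sorting, so PDGFR-β+ cells can include fibroblasts, pericytes and other mural cells, and the condition R-UUO differs from UUO-7 in time after surgery as well as in reversal.

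A miRNA guides the silencing complex to messenger RNAs that pair with its seed, the stretch of bases near its 5′ end. The family is one of the oldest in animals and is encoded in conserved clusters, each with a miR-99 or miR-100 gene, a let-7 gene and a miR-125 gene. The miR-99 and miR-100 miRNAs are known to target messenger RNAs of the mTOR pathway, whereas miR-125 miRNAs, relatives of the worm lin-4, are known for roles in blood cell development and in macrophage activation.

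The mature sequences are shown because they divide the family into seed groups and show which members can be told apart by their reads. They were taken from RefSeq (GRCm38.p6) and are written 5′ to 3′, with the seed, bases 2 to 8, in capitals.
miR-99a-5p: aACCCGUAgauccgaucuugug
miR-100-5p: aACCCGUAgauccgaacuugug
miR-99b-5p: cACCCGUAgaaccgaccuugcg
miR-125a-5p: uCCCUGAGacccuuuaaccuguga
miR-125b-5p: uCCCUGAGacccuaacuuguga
miR-351-5p: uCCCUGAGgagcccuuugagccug
The seed ACCCGUA was carried by 3 names in the table, all of them members. The seed CCCUGAG was carried by 5 names, which were miR-125a-5p, miR-125b-5p, miR-351-5p and the uncounted miR-6367 and miR-6394, each with 0 counts in the 63 libraries. Counting from 1 at the 5′ end, miR-99a-5p and miR-100-5p differed by the single substitution U16A, and miR-99a-5p and miR-99b-5p by 4 (A1C, U11A, U16C and U21C). A read of miR-100-5p therefore differs from one of miR-99a-5p at 1 base, and how the authors' counting treated mismatched reads bears on the smaller of the 2 values in a library.

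The 6 loci lie in 3 clusters, all on the plus strand of GRCm38. The cluster on chromosome 9 spans 50525 bases and holds miR-100-5p (chr9:41531437-41531458) and one copy of miR-125b-5p (chr9:41581940-41581961), with let-7a-2 between them, in an intron of 3110039I08Rik and Gm49317. That miR-100 site also overlaps an exon of the antisense non-coding RNA Gm48742, and the miR-125b site an exon of Gm28119. The cluster on chromosome 16 spans 47361 bases in an intron of Mir99ahg and holds miR-99a-5p (chr16:77598940-77598961), let-7c-1 and the other copy of miR-125b-5p (chr16:77646279-77646300). The cluster on chromosome 17 spans only 647 bases in Spaca6, with miR-99b-5p (chr17:17830194-17830215) in an intron and miR-125a-5p (chr17:17830817-17830840) in an exon, and let-7e between them.

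The copies of miR-125b-5p have one mature sequence, so their reads cannot be assigned to a locus by sequence. Counts over the 6 member loci below include both copies, which are not independent of each other. The chromosome 9 locus held 57.3% ± 1.26 (SD, n = 63 libraries) of the miR-125b-5p counts, with a range of 54.2% to 62.6%, and this share was nearly the same in every cell type. The opposite arms of the 2 hairpins do differ, by 5 substitutions (G3A, G4A, U7C, C11U and G20C), and are shown because they are the only mature products here that report each miR-125b locus separately.
miR-125b-1-3p, chromosome 9: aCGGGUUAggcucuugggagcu
miR-125b-2-3p, chromosome 16: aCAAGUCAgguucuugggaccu

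Library totals ranged from 2792366 to 10819385 counts in ECs, from 1106651 to 6912556 in Macs, from 616565 to 5093294 in PT cells and from 1905053 to 8769219 in PDGFR-β+ cells. The markers of each sorted type were highest in their own libraries. The summed endothelial markers (miR-126a) were 93098 to 173190 counts per 1000000 normalised library counts (CPM) in ECs and at most 3523 CPM elsewhere. Leukocyte markers (miR-142a and miR-223) were 14705 to 41968 CPM in Macs and at most 698 CPM elsewhere, and proximal tubular markers (miR-192, miR-194 and miR-215) were 16092 to 130310 CPM in PT cells and at most 5217 CPM elsewhere. Stromal markers (miR-143, miR-145a, miR-199a and miR-214) were 92519 to 400900 CPM in PDGFR-β+ cells and at most 46035 CPM in any other library. CPM are given on one of 2 scales: the injury comparisons use normalisation among the libraries of one cell type, and the cell type comparisons, like these marker sums, use normalisation over all 63 libraries.

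The family as a whole made up a small share of each library, and most of it came from the chromosome 17 pair, miR-99b-5p and miR-125a-5p. As a share of all counts in a library, which does not depend on normalisation factors, the family held a mean of 2.10% in sham ECs, 1.97% in sham Macs, 1.40% in sham PT cells and 1.30% in sham PDGFR-β+ cells. By R-UUO the share was 3.16% in PDGFR-β+ cells, 2.21% in ECs, 1.91% in PT cells and 1.59% in Macs. Macs had their lowest share during obstruction, at 1.12% at UUO-2 and 1.01% at UUO-7. The chromosome 17 pair made up 94.3% ± 1.40 (SD, n = 16) of family counts in ECs and 93.4% ± 1.45 (n = 16) in PT cells, but 80.9% ± 2.37 (n = 16) in Macs. In PDGFR-β+ cells the pair fell from a mean of 91.0% in sham to 71.0% at UUO-7 and 72.5% at R-UUO.

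**Figure D1:**
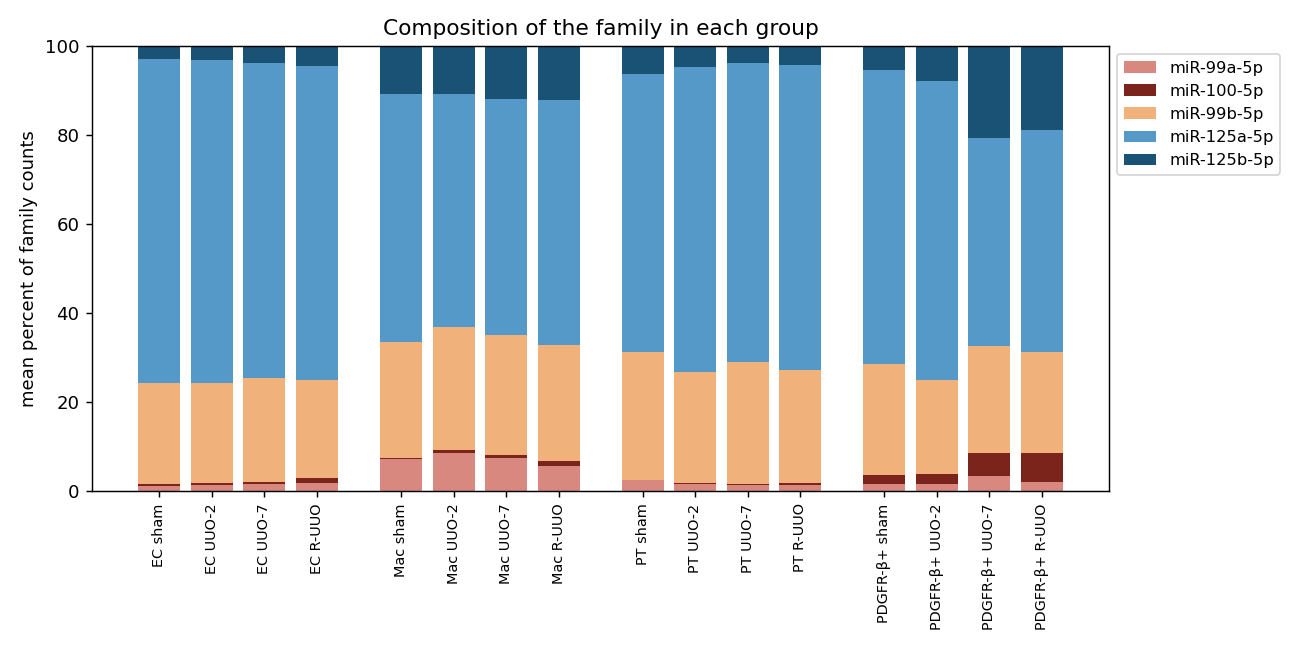
Mean percent of the family's counts held by each member (stacked bars, summing to 100) in each of the 16 groups of cell type and condition. miR-125a-5p and miR-99b-5p fill most of every bar, and the miR-125b-5p part of the PDGFR-β+ bars grows from 5.40% in sham to 20.6% at UUO-7 and 19.0% at R-UUO.

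The first question was where each member is most abundant. miR-100-5p was the most unequal across cell types. On the all-library scale its median was 640 CPM in PDGFR-β+ cells (range 298 to 2983, n = 15), 179 CPM in ECs (120 to 550, n = 16), 31.1 CPM in PT cells (4.69 to 227, n = 16) and 25.4 CPM in Macs (11.4 to 128, n = 16). Over the 4 conditions weighted equally, PDGFR-β+ cells exceeded ECs by 2.05 ± 0.20 (log2 fold change ± SE), with ECs lower at an adjusted p of 1.53e-13 by edgeR's quasi-likelihood test with Benjamini-Hochberg adjustment. ECs exceeded Macs by 2.42 ± 0.20 and PT cells by 2.85 ± 0.21. Macs and PT cells, the neighbours at the bottom of the order, were not separated (0.43 ± 0.21, adjusted p = 0.0661), although Macs passed with library size alone (1.06), and in sham alone Macs exceeded PT cells by 1.78 ± 0.48 (adjusted p = 0.00136, edgeR). Within libraries miR-100-5p made up 63.6% of the counts of miR-100-5p and miR-99a-5p together, a share that does not depend on scaling but moves with miR-99a-5p too, in PDGFR-β+ cells, 32.1% in ECs, 13.2% in PT cells and 7.82% in Macs, and in sham the Mac (1.2% to 7.75%) and PT (2.05% to 6.18%) shares overlapped.

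miR-125a-5p and miR-99b-5p, which share a cluster, shared an order of cell types. Median miR-125a-5p was 22792 CPM in ECs, 14256 CPM in PDGFR-β+ cells, 10614 CPM in PT cells and 4116 CPM in Macs, and median miR-99b-5p was 7397, 5310, 3844 and 2222 CPM in the same order. Macs were below each of the other cell types for both by more than 1.5-fold across the 6 tests by edgeR, the smallest log2 difference being that from PT cells for miR-99b-5p (-0.82) and the largest that from ECs for miR-125a-5p (ECs higher by 2.40). With library size alone Macs stayed lower, but by less than 1.5-fold for miR-99b-5p, for instance by -0.28 against PDGFR-β+ cells, and by -0.55 for miR-125a-5p against PDGFR-β+ cells, and in sham alone the difference from PDGFR-β+ cells changed sign for both members. PT cells and PDGFR-β+ cells differed by 0.49 ± 0.08 for miR-125a-5p and 0.53 ± 0.07 for miR-99b-5p, both short of the 1.5-fold limit. Within a library, miR-125a-5p was 3.20 ± 0.42 (SD, n = 16) times as abundant as miR-99b-5p in ECs, 2.56 ± 0.59 (n = 15) times in PDGFR-β+ cells, 2.54 ± 0.44 (n = 16) times in PT cells and 2.04 ± 0.29 (n = 16) times in Macs.

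The members from chromosomes 16 and 9 followed other orders. Median miR-99a-5p was 566 CPM in Macs, 439 CPM in ECs, 397 CPM in PDGFR-β+ cells and 220 CPM in PT cells. By the call rule PT cells were below the other types, for instance below ECs by 1.00 ± 0.10, which was 0.20 with library size alone, and ECs and PDGFR-β+ cells were not separated (log2 difference of -0.10 ± 0.10, adjusted p = 0.437, edgeR). Median miR-125b-5p at its chromosome 9 locus was 1185 CPM in PDGFR-β+ cells, 634 CPM in ECs, 497 CPM in Macs and 381 CPM in PT cells. PDGFR-β+ cells exceeded every other type (ECs were lower by 1.23 ± 0.09, Macs by 1.57 ± 0.09 and PT cells by 2.00 ± 0.09 on the log2 scale), whereas the steps from ECs to Macs (0.33) and from Macs to PT cells (0.43) were below 1.5-fold. With library size alone the Mac difference was -0.50. Averaging over conditions hides that Macs led in sham, where they were above ECs (ECs lower by 1.57 ± 0.20 for miR-99a-5p and 0.69 ± 0.18 for miR-125b-5p, both called by edgeR, the second in 54 of 63 leave-outs), and above PDGFR-β+ cells by 1.66 ± 0.20 for miR-99a-5p (called) and 0.50 ± 0.18 for miR-125b-5p (below 1.5-fold, and 1.61 with library size alone). Among all 6 loci and 6 pairs of cell types, 25 of 36 differences were called. The background of called loci ran from 40.2% for ECs against PDGFR-β+ cells to 68.7% for Macs against PDGFR-β+ cells, with 62.3% for Macs against PT cells, 63.2% for PT against PDGFR-β+ cells, 64.7% for ECs against Macs and 68.6% for ECs against PT cells. In sham alone 23 of 36 were called, with backgrounds of 38.7%, 61.4%, 52.2%, 53.7%, 56.5% and 56.9% for the same pairs. Normalisation factors were 1.37 to 2.01 in Mac libraries and 0.471 to 0.769 in ECs, and scaling by library size alone reversed the sign of the EC-to-Mac difference for miR-125b-5p (to -0.99 at each locus) and of the EC-to-PT difference at its chromosome 9 locus (to -0.02). The order of Macs against the other types for these members therefore depends on the scaling, and the within-library shares do not depend on it.

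**Figure D2:**
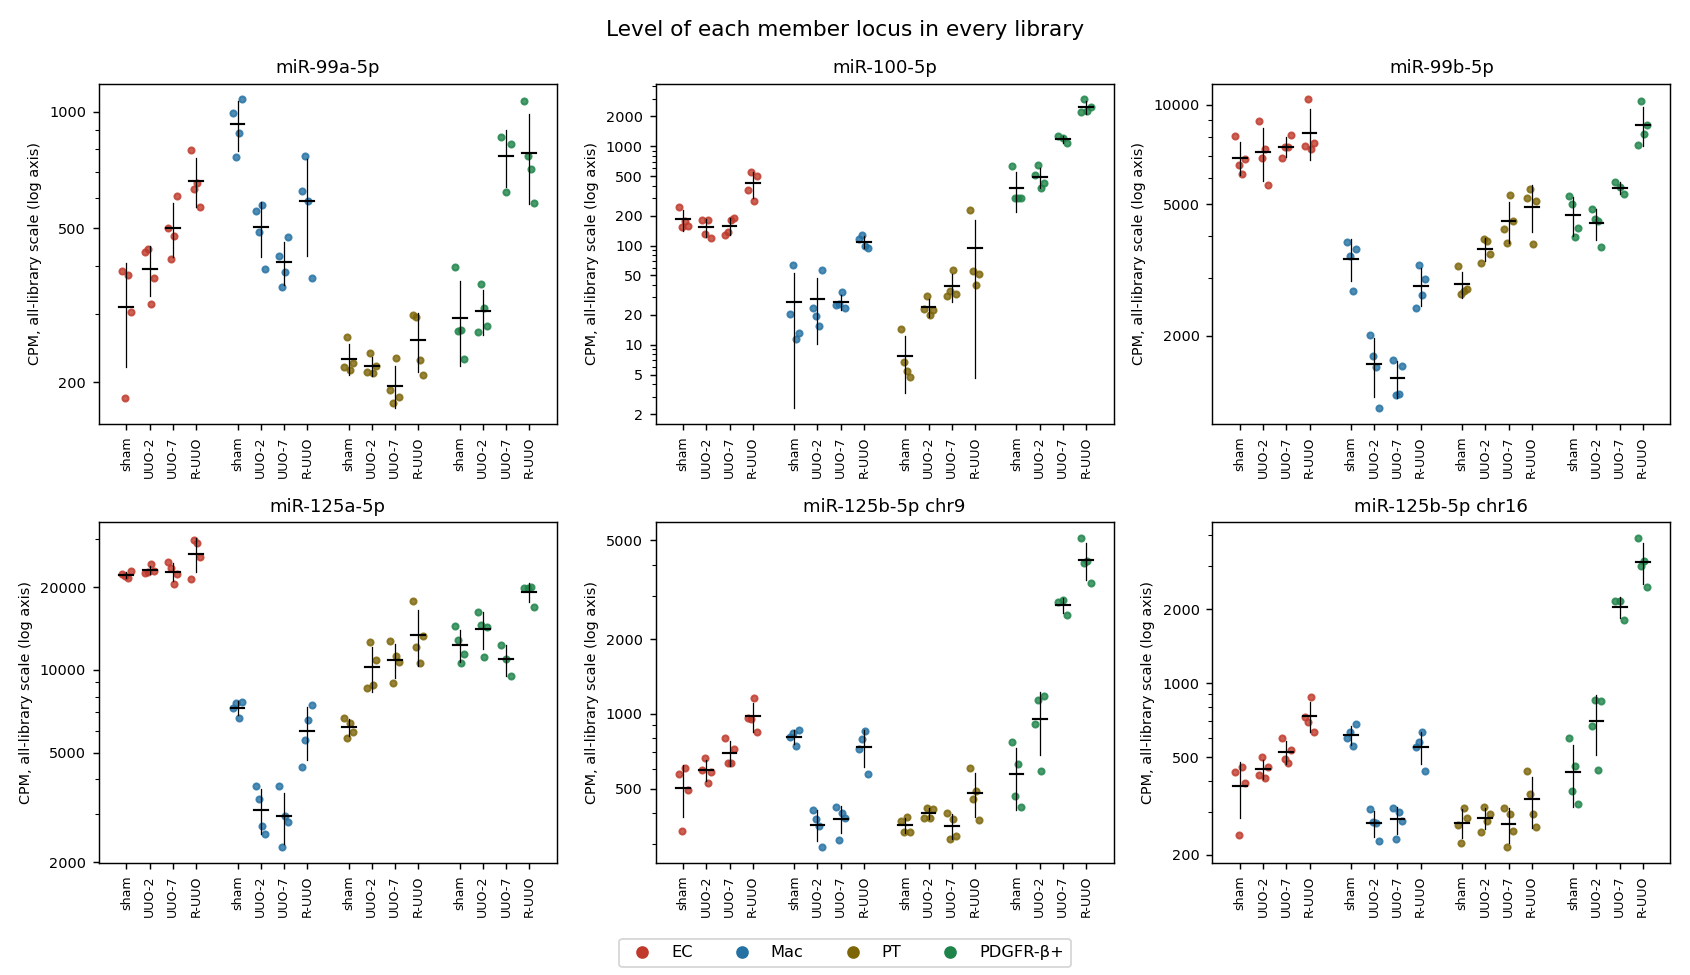
Level of each member locus in every library, in CPM on the all-library scale (log axis), with 1 dot per library, a bar for the group mean and a line for the SD, for 4 conditions in each of 4 cell types. The miR-100-5p dots of PDGFR-β+ cells run from 298 to 2983 CPM, above those of Macs, which end at 128 CPM.

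The next question was how the members changed with injury and reversal within each cell type. A locus was called when the adjusted p was under 0.05 and the fold change above 1.5, and adjusted p values are from edgeR's quasi-likelihood test with Benjamini-Hochberg adjustment over all loci tested in that comparison. Comparisons that share a control group, such as the 3 against sham, are not independent of each other.

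In PDGFR-β+ cells miR-125b-5p, miR-100-5p and miR-99a-5p rose by UUO-7 and stayed above sham at R-UUO, where miR-99b-5p was higher too. miR-125b-5p (chromosome 9 locus) was measured at 564, 407, 473 and 337 CPM in sham, 788, 913, 481 and 920 CPM at UUO-2, 2046, 2209 and 2014 CPM at UUO-7, and 4160, 2934, 2879 and 2745 CPM at R-UUO. Every UUO-7 library lay above every sham and UUO-2 library, and every R-UUO library above every UUO-7 library. Against sham this was a log2 fold change of 2.23 ± 0.22 at UUO-7 (adjusted p = 1.18e-06) and 2.84 ± 0.22 at R-UUO (adjusted p = 6.60e-08), and that of the chromosome 16 locus was 2.19 ± 0.22 and 2.81 ± 0.22. At UUO-2 the changes of 0.80 ± 0.21 (adjusted p = 0.0326) and 0.75 ± 0.21 (adjusted p = 0.0429) were called but fragile, since leaving out a single library removed the call in 7 of the leave-outs for the chromosome 9 locus and 11 for the chromosome 16 locus, with values of 0.64 to 0.81. The step from UUO-7 to R-UUO (0.61 at each locus, adjusted p = 0.160) did not pass, but did with no low-count filter (0.63 and 0.64, adjusted p = 0.0253 and 0.0322).

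miR-100-5p was measured in PDGFR-β+ cells at 462, 260, 227 and 238 CPM in sham, 448, 512, 308 and 332 CPM at UUO-2, 915, 927 and 864 CPM at UUO-7 and 1798, 2154, 1580 and 2020 CPM at R-UUO. The UUO-7 libraries were all above the sham and UUO-2 libraries, and the R-UUO libraries were all above those of UUO-7. Against sham, miR-100-5p rose by 1.60 ± 0.24 at UUO-7 (adjusted p = 4.87e-05) and by 2.67 ± 0.23 at R-UUO (adjusted p = 1.63e-07). From UUO-7 to R-UUO it rose by a further 1.07 ± 0.24 (adjusted p = 0.0195), a call that was lost when R-UUO replicate 2 or any of UUO-7 replicates 2, 4 and 5 was left out.

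miR-99a-5p, which differs from miR-100-5p at 1 base, was measured in PDGFR-β+ cells at 290, 237, 207 and 184 CPM in sham, 233, 288, 255 and 218 CPM at UUO-2, 623, 476 and 662 CPM at UUO-7 and 868, 556, 496 and 473 CPM at R-UUO. The UUO-7 and R-UUO libraries overlapped each other and all lay above the sham and UUO-2 libraries. Against sham it rose by 1.35 ± 0.22 at UUO-7 (adjusted p = 0.000103) and 1.38 ± 0.21 at R-UUO (adjusted p = 6.01e-05), with 0.03 between UUO-7 and R-UUO (adjusted p = 0.974). The share of miR-100-5p among the counts of the pair was 55.6% in sham, 60.7% at UUO-7 and 76.0% at R-UUO.

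For the chromosome 17 pair, the calls in PDGFR-β+ cells were at R-UUO in the fit with TMM factors. miR-99b-5p was measured at 3877, 4364, 2999 and 3389 CPM in sham, 4206, 4328 and 4301 CPM at UUO-7 and 6123, 7434, 5694 and 7063 CPM at R-UUO, where it was 0.85 ± 0.14 above sham (adjusted p = 0.000141). miR-125a-5p was measured at 10519, 11196, 8030 and 9107 CPM in sham, 8906, 8377 and 7613 CPM at UUO-7 and 16065, 14344, 13973 and 13778 CPM at R-UUO. For both, the R-UUO libraries lay above all sham and UUO-7 libraries, while the UUO-7 and sham libraries overlapped. From UUO-7 to R-UUO, miR-125a-5p rose by 0.81 ± 0.15 (adjusted p = 0.00644) and miR-99b-5p by 0.62 ± 0.15 (adjusted p = 0.0287). The first of these calls was lost without UUO-7 replicate 5 (0.76, adjusted p = 0.074), and the second in 5 of the leave-outs, among them each UUO-7 library. Scaling by library size alone removed both, at 0.58 and 0.39, together with the miR-100-5p call at 0.84. The same scaling added calls against sham, for miR-99b-5p at UUO-7 (0.76, adjusted p = 0.000657) and miR-125a-5p at R-UUO (0.88, adjusted p = 1.74e-05).

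In PDGFR-β+ cells as a whole, 2 of 6 member loci, both of miR-125b-5p, were called higher against sham at UUO-2 (5.66% of the 477 loci tested). At UUO-7 4 of 6 were called higher against sham (34%), and at R-UUO 5 of 6 (27.9%), both copies of miR-125b-5p among them. From UUO-2 to UUO-7, 4 of 6 were higher (23.5%), and from UUO-7 to R-UUO, 3 of 6 (3.14%). The groups did not overlap at 4 of 6 loci for UUO-7 against sham (58.1% of all loci), 6 for R-UUO against sham (38.8%), 6 for UUO-7 against UUO-2 (50.1%) and 5 for R-UUO against UUO-7 (17.8%). For UUO-7 against UUO-2, miR-125a-5p was lower and the other loci were higher. It went from 9129 to 14068 CPM at UUO-2 to 7613 to 8906 CPM at UUO-7. This fall was not called by edgeR but was called by DESeq2 (-0.61, adjusted p = 0.000794). The median log2 fold change over the 6 loci against sham was 1.48 at UUO-7 and 2.03 at R-UUO, beside medians over all loci of 0.50 and 0.40. The stromal markers of these libraries also moved: their summed level was 246650 to 347170 CPM in sham, 105090 to 133530 CPM at UUO-7 and 75116 to 126390 CPM at R-UUO, none of the 7 marker loci being at 0 in any of these libraries. At UUO-7 against sham miR-143-3p (-1.48) and miR-145a-5p (-1.28) fell, while miR-214-3p (3.06) and the 4 miR-199a loci (2.09 to 2.39) rose, and their part in the members' differences was not tested. In sorted populations sequenced as bulk RNA, a change in how many cells of one kind were collected and a change in RNA per cell cannot be told apart.

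In Macs 5 of the 6 loci fell during obstruction, miR-100-5p being the exception, and miR-125a-5p, miR-99b-5p and miR-125b-5p rose again from UUO-7 to R-UUO. miR-125a-5p was measured at 11327, 11826, 10905 and 11206 CPM in sham, 6355, 6093, 4701 and 4763 CPM at UUO-2, 6637, 3980, 5487 and 4287 CPM at UUO-7 and 7349, 8849, 10172 and 12685 CPM at R-UUO. All obstructed libraries were below all sham libraries and below all R-UUO libraries, and R-UUO overlapped sham. The sum of the Macs' own leukocyte markers (3 names, none at 0 in a Mac library) was lower too. It went from 56824 to 65442 CPM in sham to 45098 to 51201 CPM at UUO-2 and 31486 to 34078 CPM at UUO-7, and was 25007 to 44099 CPM at R-UUO. Most of it was miR-142a-5p, at 52163 to 60917 CPM in sham. At UUO-2 miR-142a-3p (1564 to 2030 CPM) and miR-223-3p (3428 to 3800 CPM) were above their sham ranges of 957 to 1423 and 3080 to 3397 CPM. At UUO-7 both were below those ranges. Proximal tubular markers (3 names at 4 loci, none at 0) went from 5498.5 to 7662 CPM in sham to 3773 to 5464 CPM at UUO-2, 2304 to 3453 CPM at UUO-7 and 1755 to 3890 CPM at R-UUO. Neither marker sum returned to the sham range at R-UUO, and their part in the members' differences was not tested. The fall of miR-125a-5p was 1.05 ± 0.17 in log2 at UUO-2, called at an adjusted p of 0.000172 by edgeR. Its UUO-7 log2 fold change was -1.15 ± 0.18 (adjusted p = 3.79e-05, edgeR). From UUO-7 to R-UUO the log2 fold change was 0.94 ± 0.17 (adjusted p = 0.00111), and R-UUO differed from sham by -0.21 (adjusted p = 0.355).

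miR-99b-5p and miR-125b-5p did the same in Macs. miR-99b-5p was measured at 6006, 5446, 4440 and 5362 CPM in sham, 3393, 3122, 2798 and 2264 CPM at UUO-2, 2959, 2323, 2478 and 2469 CPM at UUO-7 and 4021, 5208, 4104 and 5071 CPM at R-UUO. miR-125b-5p (chromosome 9 locus) was measured at 1254, 1308, 1205 and 1265 CPM in sham, 694, 679, 614 and 545 CPM at UUO-2, 738, 545, 740 and 583 CPM at UUO-7 and 1195, 1264, 1322 and 972 CPM at R-UUO. For both, the obstructed libraries did not overlap sham or R-UUO, and the R-UUO and sham libraries overlapped. At UUO-7 the log2 fold change against sham was -1.06 ± 0.14 for miR-99b-5p (adjusted p = 1.24e-05) and -0.95 ± 0.14 for miR-125b-5p (adjusted p = 2.24e-05), and from UUO-7 to R-UUO it was 0.85 ± 0.14 (adjusted p = 0.000468) and 0.87 ± 0.14 (adjusted p = 0.000331). The chromosome 16 locus of miR-125b-5p gave -0.99 ± 0.13 and 0.89 ± 0.13 for the same comparisons.

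miR-99a-5p fell in Macs too, and its R-UUO level was not separated from that of UUO-7 (0.44, adjusted p = 0.0709), except without R-UUO replicate 5, when it was 0.65 higher (adjusted p = 0.00205). It was measured at 1549, 1200, 1439 and 1586 CPM in sham, 936, 883, 997 and 737 CPM at UUO-2, 742, 621, 717 and 727 CPM at UUO-7 and 1034, 1231, 907 and 633 CPM at R-UUO. The sham libraries lay above all UUO-2 and UUO-7 libraries, and 1 R-UUO library reached into the sham range. The log2 fold change against sham was -0.70 ± 0.17 at UUO-2 (adjusted p = 0.00414), -1.04 ± 0.17 at UUO-7 (adjusted p = 7.37e-05) and -0.60 ± 0.17 at R-UUO (adjusted p = 0.00941). The last of these was not called without R-UUO replicate 5, at -0.57, below 1.5-fold.

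miR-100-5p was scarce in Macs until reversal. It was measured at 31.6, 101, 18.6 and 19.2 CPM in sham, 39.7, 35.4, 27.0 and 106 CPM at UUO-2, 44.4, 44.7, 62.9 and 36.0 CPM at UUO-7 and 194, 204, 152 and 161 CPM at R-UUO. The R-UUO libraries lay above all others, among which 1 sham and 1 UUO-2 library stood above the rest of their groups. At R-UUO the log2 fold change was 2.09 ± 0.49 against sham (adjusted p = 0.00229) and 1.92 ± 0.48 against UUO-7 (adjusted p = 0.00759). Stromal markers were also higher in these R-UUO Mac libraries, with 5 of 5 tested marker loci called against sham and a summed level of 10463 to 15296 CPM, beside 3123 to 7774 CPM in sham, and their part in the miR-100-5p difference was not tested. Of the stromal marker loci, the chromosome 9 copies of miR-199a-3p and miR-199a-5p were at 0 in 3 and 8 of the 16 Mac libraries. As a percent of the level in PDGFR-β+ cells of the same mouse, miR-100-5p in Macs was 8.23% in sham (range 3.21% to 21.5%). It was 6.23% at UUO-2, 2.33% at UUO-7 (3 mice) and 4.43% at R-UUO. The stromal marker sum was 1.04%, 1.87%, 2.67% and 6.58% in the same order of conditions.

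In Macs, 5 of 6 member loci were called lower at UUO-2 (9.19% of the 457 loci tested) and 5 of 6 at UUO-7 (16.8%), and 5 of 6 were called higher from UUO-7 to R-UUO (12.7%). At R-UUO against sham, 1 locus was higher (miR-100-5p, 21.4%) and 1 lower (miR-99a-5p, 10.5%). Groups did not overlap at 5 of 6 loci at UUO-2 (39.6% of all loci), 5 at UUO-7 (47.3%) and 1 at R-UUO (32.8%) against sham, and at 5 from UUO-7 to R-UUO (23.2%). The median over the 6 loci was -0.93 at UUO-2, -1.02 at UUO-7 and -0.16 at R-UUO against sham, beside 0.15, 0.22 and 0.12 over all loci, and 0.88 from UUO-7 to R-UUO beside 0.04.

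In PT cells miR-125a-5p and miR-100-5p were called higher than sham at UUO-7 and R-UUO, and miR-99b-5p was called higher at R-UUO. miR-125a-5p was measured at 8007, 6540, 7496 and 7122 CPM in sham, 9994, 14411, 10058 and 12132 CPM at UUO-2, 13655, 10113, 12527 and 11560 CPM at UUO-7 and 21486, 13362, 12490 and 14820 CPM at R-UUO. No injured or repaired library overlapped sham. The PT cells' own markers (3 names at 4 loci, miR-215-5p at 0 in 5 of 16 libraries) summed to 119420 to 155650 CPM in sham, 61692 to 93190 CPM at UUO-2, 36188 to 60290 CPM at UUO-7 and 19516 to 72031 CPM at R-UUO, and their part in the members' differences was not tested. R-UUO replicate 1, with the highest miR-125a-5p, had the lowest of these sums and the highest stromal sum, and without it the R-UUO difference below was 0.93 (adjusted p = 0.000185, edgeR). The log2 fold change against sham was 0.68 ± 0.18 at UUO-2 (adjusted p = 0.0153, lost without UUO-2 replicate 4 at 0.63), 0.71 ± 0.18 at UUO-7 (adjusted p = 0.00434) and 1.09 ± 0.18 at R-UUO (adjusted p = 0.000207). miR-99b-5p was measured at 3884, 3084, 3210 and 3318 CPM in sham and at 6323, 6140, 4476 and 5696 CPM at R-UUO, a non-overlapping difference of 0.75 ± 0.14 (adjusted p = 0.000689, edgeR). At UUO-7 it was at 4313 to 5957 CPM, also above all sham libraries. That difference was not called here, but was called with loci of one name summed (0.62, adjusted p = 0.00149, edgeR) and with no low-count filter (0.64). With library size alone the miR-125a-5p differences were 0.48, 0.36 and 0.57 and the R-UUO difference of miR-99b-5p was 0.29, all below 1.5-fold. That scaling moved the median of all loci from sham to R-UUO by -0.45.

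miR-100-5p in PT cells was measured at 17.3, 7.67, 6.32 and 5.6 CPM in sham, 26.6, 35.4, 22.8 and 24.9 CPM at UUO-2, 33.4, 39.4, 64.2 and 35.4 CPM at UUO-7 and 275, 61.2, 47.2 and 57.9 CPM at R-UUO. The sham libraries lay below all the others, and R-UUO replicate 1 stood far above its group. The log2 fold change against sham was 1.56 ± 0.57 at UUO-2 (adjusted p = 0.0634, not called here, but called by DESeq2, with library size alone, with no low-count filter and in a fit of the compared groups only, at 1.36 to 1.60), 2.22 ± 0.56 at UUO-7 (adjusted p = 0.00492) and 3.58 ± 0.57 at R-UUO (adjusted p = 0.000175), the last falling to 2.62 without R-UUO replicate 1 (adjusted p = 5.24e-05). The sum of stromal markers in PT libraries was 1932 to 4181 CPM in sham, 7767 to 11615 CPM at UUO-2 and 7528 to 20400 CPM at UUO-7. At R-UUO it was 31334 CPM in replicate 1, the highest value. In R-UUO replicates 2, 4 and 5 it was 4221, 6916 and 5101 CPM, below every UUO-2 and UUO-7 library. Most of these sums was miR-143-3p, at 4069, 6624 and 4902 CPM. Other stromal markers did not all follow the sum. miR-214-3p in replicates 2, 4 and 5 was at 0.687, 4.89 and 11.6 CPM (1, 3 and 12 counts), the last being the highest of any PT library. Of the 4 stromal marker loci tested in PT cells, miR-143 and miR-145a were called higher at UUO-7 and R-UUO, the chromosome 9 copies of miR-199a-3p and miR-199a-5p were at 0 in 11 and 12 of the 16 libraries, and the part of these markers in the miR-100-5p difference was not tested. As a percent of the level in PDGFR-β+ cells of the same mouse, the stromal sum was 0.679%, 2.95% and 7.01% in sham, UUO-2 and UUO-7. It was 9.39% at R-UUO (range 2.40% to 27.9%). miR-100-5p was 1.97%, 4.94%, 3.41% and 3.99% in the same order.

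miR-99a-5p and miR-125b-5p did not pass in PT cells. In the alternatives run, miR-99a-5p passed at UUO-7 against sham with library size alone (-0.69), and miR-125b-5p (chromosome 9 locus) passed from UUO-7 to R-UUO without R-UUO replicate 5 (0.64, adjusted p = 0.0278, edgeR). miR-99a-5p was at 253 to 302 CPM in sham and at 234 to 362 CPM at R-UUO, and miR-125b-5p (chromosome 9 locus) at 387 to 452 CPM and 418 to 736 CPM. Against sham, 1 of 6 loci was called higher at UUO-2 (14.8% of the 330 loci tested), 2 of 6 at UUO-7 (25.5%) and 3 of 6 at R-UUO (25.8%), and the groups did not overlap at 2 loci (35.8%), 3 loci (51.5%) and 3 loci (36.4%). The medians over the 6 loci were 0.21, 0.21 and 0.58, beside 0.02, 0.00 and 0.03 over all loci.

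In ECs the chromosome 9 and 16 members were higher after reversal. miR-100-5p was measured at 148, 98.1, 110 and 98.7 CPM in sham, 134, 95.8, 115 and 79.2 CPM at UUO-2, 89.9, 96.4, 116 and 119 CPM at UUO-7 and 258, 329, 198 and 334 CPM at R-UUO. All 4 R-UUO libraries lay above the 12 others, which overlapped. At R-UUO the log2 fold change was 1.30 ± 0.20 against sham (adjusted p = 0.000306) and 1.41 ± 0.20 against UUO-7 (adjusted p = 0.00113). The stromal marker sum of the 4 R-UUO EC libraries, in the same order, was 14693, 27570, 5365 and 24367 CPM, beside 7036 to 14631 CPM in sham. The library with the lowest sum, below every sham library, also had the lowest miR-100-5p of its group, 198 CPM. Most of its sum was miR-143-3p (5010 CPM), and its miR-145a-5p, 233 CPM, was the highest of any EC library. The part of these markers in the miR-100-5p difference was not tested. Of the 5 stromal marker loci tested in ECs, miR-145a was called higher at R-UUO (1.34), and the chromosome 9 copies of miR-199a-3p and miR-199a-5p were at 0 in 1 and 12 of the 16 libraries. As a percent of the level in PDGFR-β+ cells of the same mouse, miR-100-5p in ECs was 50.5% in sham and 16.8% at R-UUO. The stromal marker sum was 4.42% and 20.0%.

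miR-99a-5p in ECs was measured at 233, 118, 235 and 190 CPM in sham, 324, 321, 204 and 246 CPM at UUO-2, 351, 293, 310 and 383 CPM at UUO-7 and 568, 380, 458 and 383 CPM at R-UUO. The UUO-7 and R-UUO libraries lay above all sham libraries. The log2 fold change against sham was 0.79 ± 0.21 at UUO-7 (adjusted p = 0.0187, and 0.0600 without UUO-7 replicate 5) and 1.21 ± 0.21 at R-UUO (adjusted p = 0.000736). miR-125b-5p (chromosome 9 locus) was measured at 346, 218, 377 and 307 CPM in sham and 686, 571, 812 and 569 CPM at R-UUO, without overlap, a log2 fold change of 1.08 ± 0.18 (adjusted p = 0.000434), and its chromosome 16 locus gave 1.07 ± 0.18. At UUO-7 the chromosome 9 locus was 0.58 above sham (adjusted p = 0.0330, edgeR), just under 1.5-fold. It was called by DESeq2 at 0.61, in a fit of the compared groups only at 0.60, and with loci summed or no low-count filter at 0.70. It was also called in many leave-outs, at 0.61 to 0.76, but not with library size alone or a replicate block. The chromosome 16 locus was called by the same alternatives, at 0.59 to 0.70 outside the leave-outs. miR-125a-5p and miR-99b-5p were 0.36 (adjusted p = 0.0196) and 0.35 (adjusted p = 0.0763) above sham in ECs at R-UUO, without overlap but below 1.5-fold. In ECs, 1 of 6 loci was called higher at UUO-7 (6.18% of the 469 loci tested), 4 of 6 at R-UUO against sham (11.7%) and 1 of 6 from UUO-7 to R-UUO (0.853%). Groups did not overlap at 3 of 6 loci (24.7% of all loci), 6 of 6 (26.2%) and 2 of 6 (11.7%) in the same comparisons. The median over the 6 loci at R-UUO was 1.07 above sham, beside 0.04 over all loci.

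Whether these changes differed between cell types was tested directly, as a difference of differences in one fit over all libraries. For UUO-7 against sham, the change in Macs was lower than that in PDGFR-β+ cells at 6 of 6 loci (13% of the 671 loci tested were lower), by 3.36 for miR-125b-5p (chromosome 9), 2.57 for miR-99a-5p, 1.62 for miR-100-5p, 1.48 for miR-99b-5p and 1.13 for miR-125a-5p on the log2 scale. The miR-100-5p difference held in 31 of 63 leave-outs (-1.98 to -0.78) and did not pass with DESeq2 (-1.38, adjusted p = 0.0617). Against PT cells the Mac change was lower at 6 of 6 loci (17.6%), though with DESeq2 miR-99a-5p (-0.38) and miR-125b-5p (-0.54 and -0.50) no longer passed and miR-99a-5p held in 47 of 63 leave-outs, and against ECs it was lower at 5 of 6, the EC change minus the Mac change running from 1.31 for miR-99b-5p to 1.86 for miR-99a-5p (7.45% of loci were higher). The EC change was lower than that of PDGFR-β+ cells at 3 loci (22.5%), by 1.84 ± 0.55 for miR-100-5p and by 1.79 ± 0.26 and 1.76 ± 0.27 for the copies of miR-125b-5p. Between PT and PDGFR-β+ cells, miR-125b-5p (-2.27 and -2.25) and miR-99a-5p (-1.62) were lower in PT cells (13.3%) and miR-125a-5p was higher (0.99, 14.3%), although with library size alone that last difference was 0.06 (adjusted p = 0.986). Between ECs and PT cells, miR-99a-5p was higher in ECs (0.91, 3.43%, held in 39 of 63 leave-outs and lost with no low-count filter) and miR-100-5p (-2.55) and miR-125a-5p (-0.78, not passing with DESeq2 at -0.43) lower (12.8%). For R-UUO against UUO-7, miR-99b-5p was called between Macs and PT cells (0.78 ± 0.21, adjusted p = 0.0254, 1.79%), a call that held in 31 of 63 leave-outs and that DESeq2 did not make (0.41, adjusted p = 0.214). With mouse as a block, 4 more differences passed: UUO-7 against sham for miR-99a-5p between ECs and PDGFR-β+ cells (-0.64, adjusted p = 0.0460) and for miR-99b-5p between ECs and PT cells (-0.51, adjusted p = 0.0163), and R-UUO against UUO-7 for miR-99b-5p between ECs and Macs (-0.80, adjusted p = 0.00506) and for miR-125a-5p between Macs and PT cells (0.73, adjusted p = 0.0443), by edgeR. DESeq2 added 3 calls and lost 6, and library size alone added 4 and lost 6. For UUO-7 against sham both added miR-125b-5p between ECs and PT cells (0.84 to 0.90). Both also added miR-99a-5p between ECs and PDGFR-β+ cells (-0.70 and -1.25). Library size alone lost miR-99a-5p (-0.22) and miR-125b-5p (-0.36 and -0.39) between Macs and PT cells. It also lost miR-125a-5p between ECs and PT cells (-0.38).

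The opposite arms of miR-125b separated its loci, which the shared 5p sequence cannot do. In Macs, miR-125b-1-3p from chromosome 9 was measured at 5.75, 3.75, 2.92 and 3.63 CPM in sham, 7.77, 8.74, 6.22 and 6.92 CPM at UUO-2, 34.5, 38.4, 45.2 and 47.5 CPM at UUO-7 and 60.8, 51.1, 50.3 and 45.6 CPM at R-UUO. miR-125b-2-3p from chromosome 16 went from 323, 359, 361 and 331 CPM in sham to 150, 155, 166 and 193 CPM at UUO-7 and 213, 270, 183 and 114 CPM at R-UUO. Neither arm's UUO-7 or R-UUO libraries overlapped sham, and the arms moved in opposite directions. Against sham the chromosome 9 arm rose by 3.31 ± 0.23 at UUO-7 (adjusted p = 1.18e-08) and 3.64 ± 0.23 at R-UUO (adjusted p = 5.54e-09), while the log2 fold change of the chromosome 16 arm was -1.05 ± 0.19 (adjusted p = 0.000211) and -0.81 ± 0.19 (adjusted p = 0.00278). At UUO-2 the rise of miR-125b-1-3p (0.83 ± 0.23, adjusted p = 0.0109) was lost in 5 of the leave-outs, with values of 0.54 to 0.66.

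The shift is plain within libraries. In Macs the share of miR-125b-1-3p among the counts of both 3p arms was 1.75%, 1.03%, 0.803% and 1.08% in sham, 3.54%, 4.34%, 3.00% and 3.76% at UUO-2, 18.7%, 19.9%, 21.4% and 19.7% at UUO-7 and 22.2%, 15.9%, 21.6% and 28.6% at R-UUO. In PDGFR-β+ cells it was 41.9%, 37.7%, 38.5% and 40.7% in sham, 68.2%, 67.4%, 49.9% and 66.7% at UUO-2, 74.5%, 84.0% and 82.1% at UUO-7 and 68.5%, 83.2%, 81.3% and 85.4% at R-UUO. Sham lay below every other group in both cell types. In ECs the group means ran only from 11.6% to 13.2%, and in PT cells, where the arms had 51 to 444 counts in all, from 18.9% to 31.5%. Over the same libraries the chromosome 9 share of miR-125b-5p stayed near its mean of 57.3%, so the 5p counts by locus did not carry the shift seen in the 3p arms.

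**Figure D3:**
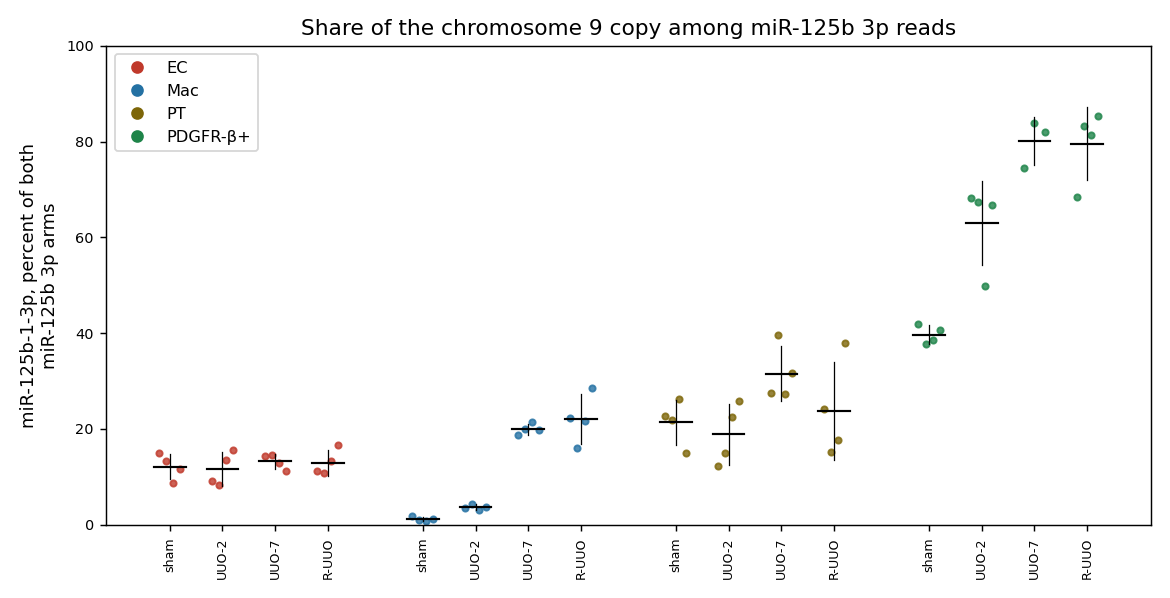
Percent of the counts of both miR-125b 3p arms that came from miR-125b-1-3p (chromosome 9), with 1 point per library, by cell type and condition. Mac points run from 0.803% to 1.75% in sham and from 18.7% to 21.4% at UUO-7, and PDGFR-β+ points from 37.7% to 41.9% in sham and from 74.5% to 84.0% at UUO-7.

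The stromal markers miR-199a and miR-214 also rose in the Mac libraries, with 3 of 5 tested marker loci called at UUO-7 (miR-214-3p by 3.82), and a summed level of 5516 to 8598 CPM at UUO-7 beside 3123 to 7774 CPM in sham. As a percent of the level in PDGFR-β+ cells of the same mouse, miR-125b-1-3p in Macs was 4.61% in sham, 3.18% and 2.89% after the shorter and longer obstruction and 4.43% at R-UUO, and miR-214-3p was 3.76%, 3.60%, 5.97% and 7.55%. The part of these markers in the miR-125b-1-3p difference was not tested. For miR-125b-5p itself (chromosome 9 locus) the same percent was 151% in sham and 40.8%, 14.6% and 17.8% in the other groups.

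In PDGFR-β+ cells both arms rose, that of chromosome 9 by more. miR-125b-1-3p was measured at 62.7, 37.1, 53.4 and 32.9 CPM in sham, 518, 726 and 743 CPM at UUO-7 and 465, 650, 524 and 641 CPM at R-UUO, and the groups did not overlap sham. The log2 fold change against sham was 3.83 ± 0.28 at UUO-7 (adjusted p = 3.68e-08) and 3.61 ± 0.27 at R-UUO (adjusted p = 4.72e-08), beside 1.18 ± 0.26 (adjusted p = 0.00165) and 1.03 ± 0.25 (adjusted p = 0.00331) for miR-125b-2-3p. It was already 1.29 ± 0.25 at UUO-2 (adjusted p = 0.00367). In ECs miR-125b-1-3p and miR-125b-2-3p were 1.1 ± 0.24 and 1.01 ± 0.27 above sham at R-UUO, near the 1.08 and 1.07 of the 5p loci, and in PT cells they were 0.29 (adjusted p = 0.470) and -0.48 (adjusted p = 0.114, edgeR) at UUO-7 against sham, neither passing.

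The other opposite arms mostly took the direction of their 5p partners. At UUO-7 against sham, the log2 fold change of miR-99a-3p was -1.1 in Macs and 1.75 in PDGFR-β+ cells (both called), and at R-UUO it was 0.97 in ECs (called). At UUO-7, miR-99b-3p and miR-125a-3p were -0.79 and -0.90 in Macs and 0.66 and 0.62 in PT cells, all called, but the PT calls held in only 6 and 3 of 16 leave-outs. At R-UUO, however, the Mac values against sham were -0.64 for miR-99b-3p and -0.80 for miR-125a-3p, both called, where the 5p arms were near sham. miR-100-3p was at or near 0 in many libraries and could be tested in PDGFR-β+ cells alone, where its change of 1.93 ± 1.09 at R-UUO did not pass (adjusted p = 0.159).

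The let-7 miRNAs that lie between the members of each cluster are known to repress growth genes and to mark differentiated cells, and are among the most abundant mature miRNAs in many tissues. let-7e-5p, between miR-99b and miR-125a, fell with them in Macs, with a log2 fold change against sham of -1.20 ± 0.20 at UUO-2 and -1.30 ± 0.20 at UUO-7. At R-UUO it was still -1.07 ± 0.20 (adjusted p = 0.000453), and from UUO-7 to R-UUO its change was 0.23 (adjusted p = 0.419), beside 0.85 for miR-99b-5p and 0.94 for miR-125a-5p. let-7c-5p, of which 1 of 2 loci lies in the chromosome 16 cluster, was called in Macs at UUO-2 (-0.86 at that locus) but was 0.40 at UUO-7 against sham (adjusted p = 0.0551), where miR-99a-5p was -1.04. let-7a-5p, of which 1 of 2 loci lies in the chromosome 9 cluster, was between -0.57 and 0.01 at that locus against sham in the 4 cell types at UUO-7, and its R-UUO value in PDGFR-β+ cells was -0.48, where miR-100-5p was 2.67. The reads of let-7a-5p and let-7c-5p, like those of miR-125b-5p, cannot be assigned to one locus by sequence. let-7c-1-3p, which is specific to the chromosome 16 cluster, was called in PDGFR-β+ cells at UUO-7 (2.44 ± 0.92, adjusted p = 0.0368) and R-UUO (2.68 ± 0.88, adjusted p = 0.0219), calls that held in 8 and 13 of 15 leave-outs.

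miR-351-5p, a miRNA encoded on another chromosome with the miR-125 seed, moved opposite to miR-125b-5p in PDGFR-β+ cells at UUO-7 and with it in ECs at R-UUO. In PDGFR-β+ cells it was measured at 9156, 7402, 4608 and 6084 CPM in sham, 6813, 5868, 4359 and 5660 CPM at UUO-2, 1568, 1810 and 1738 CPM at UUO-7 and 3074, 5571, 5626 and 7133 CPM at R-UUO. The UUO-7 libraries lay below all others, the reverse of miR-125b-5p. Its log2 fold change was -2.0 ± 0.27 at UUO-7 against sham (adjusted p = 2.10e-05) and 1.65 ± 0.26 from UUO-7 to R-UUO (adjusted p = 0.00236).

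In PT cells miR-351-5p was measured at 154, 137, 90.2 and 98.5 CPM in sham, 801, 1195, 726 and 1209 CPM at UUO-2, 692, 615, 895 and 672 CPM at UUO-7 and 3208, 375, 622 and 653 CPM at R-UUO. All injured and repaired libraries lay above sham, by 3.04 ± 0.53, 2.58 ± 0.52 and 3.34 ± 0.53 in log2, the last being 2.22 without R-UUO replicate 1, the library that also had the highest miR-100-5p and stromal marker sum. In ECs miR-351-5p was called higher against sham in each condition (0.60, 0.75 and 0.91), the first kept in 10 of 16 leave-outs, and at R-UUO miR-125b-5p was called too (1.08). In Macs its calls at UUO-2 (0.72) and R-UUO (0.61) held in 6 and 1 of 16 leave-outs, with values down to 0.45 and 0.36, and miR-125b-5p was -0.99 and -0.08 there.

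**Figure D4:**
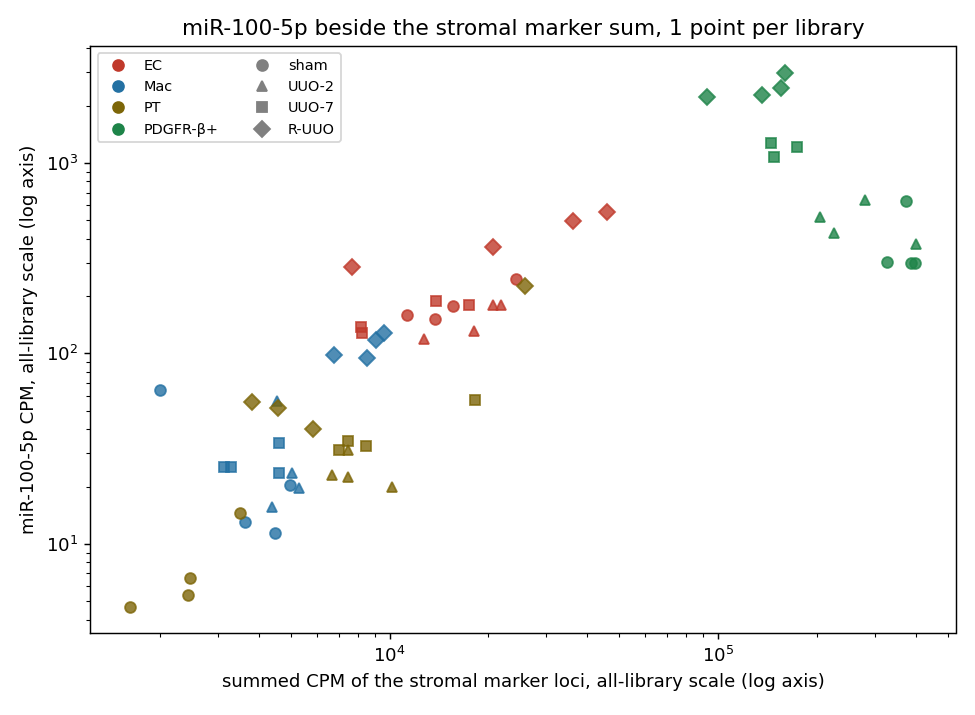
miR-100-5p against the summed stromal markers (miR-143, miR-145a, miR-199a and miR-214), both in CPM on log axes, with 1 point per library, coloured by cell type. PDGFR-β+ libraries lie apart from the other types at 92519 CPM or more of stromal markers, the others ending at 46035 CPM.

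Over the 63 libraries, the loci whose levels were most like each member were ranked by Spearman's rho of log2 CPM among 665 loci, the 6 member loci being left out of the ranking. These values are descriptions, since the libraries of a cell type share their origin and every mouse gave libraries of several cell types. miR-99a-5p was most like miR-125b-2-3p (0.92), its neighbour in the chromosome 16 cluster, followed by miR-181a-1-3p (0.88) and its own opposite arm (0.86). Outside the members, both copies of miR-125b-5p had miR-181a-1-3p first (0.81 and 0.80), below their rho of 0.99 with each other. With miR-181a-1-3p, rho within PT cells alone was -0.05 and -0.19, and within each other cell type it was 0.797 to 0.925. miR-100-5p was most like miR-181c-3p (0.94), miR-181c-5p (0.92) and miR-181d-5p (0.90). Outside the members, miR-10a-5p came first for miR-125a-5p (0.91) and miR-151-5p for miR-99b-5p (0.85), although with library size alone these were 0.68 and 0.38. Among members, miR-99b-5p and miR-125a-5p had a rho of 0.92 and miR-99a-5p and miR-125b-5p one of 0.72.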

How the data were processed

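Small RNA was sequenced from 4 cell types sorted from 16 mice (63 libraries). Per the study's methods, the authors checked reads with FastQC, trimmed them with Trim Galore 0.4.1 and cutadapt 1.1 and aligned them to GRCm38 and miRBase 22 with Bowtie through ShortStack. The values are raw read counts, deposited by the authors for each genomic locus of a mature miRNA. How reads matching several loci were placed, and whether strand was used, is not given in the sources used here. A column of totals over libraries was not used. Columns of no sample used here numbered 0.

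Groups and replicate numbers were taken from the sample labels, where the number is that of the mouse. Counts were tested with edgeR 4.0.16 (R 4.3.3): TMM factors, filterByExpr and the quasi-likelihood test, with Benjamini-Hochberg adjustment over all loci tested in each comparison. A locus was called at an adjusted p under 0.05 and a fold change above 1.5, and a difference of changes between cell types at an adjusted p under 0.05. Changes with injury were fitted within each cell type, without a block. Differences between cell types were fitted over all 63 libraries, with the 4 conditions weighted equally. Log2 CPM used a prior count of 2. The fits were first tested on simulated data. Figures were drawn with matplotlib 3.10.9 in Python 3.11.15.

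Alternatives were DESeq2 1.42.0, scaling by library size alone, no low-count filter, a fit of the compared groups only, loci of one name summed, a replicate or mouse block, and leaving out each library in turn. Libraries of different conditions with the same number came from different mice, and the deviations of their 74 pairs from the group means correlated at a median of -0.0319. Libraries of one mouse share an animal, and their 93 pairs correlated at a median of 0.0573, beside -0.0312 for other mice. The 93 replicate pairs differed by more than sampling noise (chi-square per degree of freedom of 5.40 or more), so none was treated as deposited in duplicate.

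The text names all loci of the 5 members, their opposite arms, the let-7 miRNAs of the same clusters, other miRNAs with a member's seed, the 3 loci most like each member, and markers of the 4 cell types. The members and lists were chosen with earlier results of these data known. Sequences and gene positions came from RefSeq (GRCm38.p6), which matched 6 of 6 member loci and 22 of 23 loci listed in all.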

Additional observations from a re-analysis of the deposited data

Results flagged for a closer look

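A single library stood apart from the rest of its group of 4 in 7 of 90 groups tested, where chance alone flags about 1 in 20 groups. For miR-100-5p these were Mac sham replicate 2 (100.7 CPM, the others 18.6 to 31.6), Mac UUO-2 replicate 4 (105.5 CPM, the others 27.0 to 39.7), PT R-UUO replicate 1 (274.7 CPM, the others 47.2 to 61.2) and PDGFR-β+ sham replicate 1 (461.8 CPM, the others 227 to 260). For miR-125b-5p it was PDGFR-β+ R-UUO replicate 1 at both loci, with 4160 CPM on chromosome 9 (the others 2745 to 2934) and 3165 CPM on chromosome 16 (the others 2007 to 2194). For miR-99a-5p it was PT UUO-7 replicate 4 (259.7 CPM, the others 199 to 204).

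The change with injury differed between cell types, by edgeR's test of the difference itself, in 28 of 72 tests over the member loci. For UUO-7 against sham, 3.43% to 22.5% of the 671 loci tested were called, by pair of cell types, in the directions of the member calls. The copies of miR-125b-5p were tested separately and are not independent. For UUO-7 against sham, the log2 change in ECs minus that in Macs was 1.86 for miR-99a-5p, 1.31 for miR-99b-5p, 1.34 for miR-125a-5p, and 1.57 and 1.61 for miR-125b-5p on chromosomes 9 and 16. ECs minus PT cells gave 0.91 for miR-99a-5p, -2.55 for miR-100-5p and -0.78 for miR-125a-5p. ECs minus PDGFR-β+ cells gave -1.84 for miR-100-5p, and -1.79 and -1.76 for miR-125b-5p. Macs minus PT cells gave -0.95 for miR-99a-5p, -1.84 for miR-99b-5p, -2.32 for miR-100-5p, -2.12 for miR-125a-5p, and -1.09 and -1.12 for miR-125b-5p. Macs minus PDGFR-β+ cells gave -2.57 for miR-99a-5p, -1.48 for miR-99b-5p, -1.62 for miR-100-5p, -1.13 for miR-125a-5p, and -3.36 and -3.37 for miR-125b-5p. PT cells minus PDGFR-β+ cells gave -1.62 for miR-99a-5p, 0.99 for miR-125a-5p (0.06 with library size alone), and -2.27 and -2.25 for miR-125b-5p. For R-UUO against UUO-7 the only difference called was that of miR-99b-5p, Macs minus PT cells, at 0.78 (1.79% of loci were called higher).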

How the results depend on the processing

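The counts of member calls stayed within 1.5 times their values in every alternative run: injury calls of 30 per cell type were 18 in PDGFR-β+ cells, 17 in Macs and 6 each in ECs and PT cells, and 16, 16, 6 and 4 with library size alone. These totals do not rank the cell types, since the share of all loci called differed between them. In the comparisons and directions with member calls it ran from 0.853% (ECs, R-UUO against UUO-7, higher) to 34% (PDGFR-β+ cells, UUO-7 against sham, higher). With each library left out in turn they ran from 14 to 20 in PDGFR-β+ cells, 17 to 17 in Macs and 5 to 8 each in ECs and PT cells, and from 25 to 30 between cell types over all conditions, 22 to 28 in sham and 24 to 32 for differences of changes. With the replicate number as a block, the injury calls were 18, 16, 6 and 7. The lost call was miR-99a-5p in Macs at R-UUO against sham (-0.56) and the gained one miR-100-5p in PT cells at UUO-2 (1.78). The numbers do not pair mice across conditions. With mouse as a block, calls between cell types were 25 over all conditions and 23 in sham, as without it, and 32 for differences of changes. Scaling by library size alone changed the sign of these log2 differences between cell types. ECs against Macs gave -0.99 at both loci of miR-125b-5p over all conditions and -0.11 for miR-99b-5p in sham. ECs against PT cells gave -0.022 for miR-125b-5p (chromosome 9) over all conditions and -0.61 for miR-99a-5p in sham. Macs against PDGFR-β+ cells in sham gave 0.36 for miR-125a-5p and 0.68 for miR-99b-5p. PT against PDGFR-β+ cells in sham gave 0.029 for miR-125a-5p, 0.32 and 0.33 for miR-125b-5p, 0.67 for miR-99a-5p and 0.33 for miR-99b-5p. That scaling moved the median of all loci by -1.31 for ECs against Macs and by 0.52 in PDGFR-β+ cells from sham to UUO-7. The cause of these changes was not tested. Depth limits miR-100-5p in PT cells, with as few as 5 counts in a library, and the 3p arms in PT cells.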
